A study of Mus musculus with 9 samples.

Results

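The interferon regulatory factors (IRFs) are transcription factors that share a DNA-binding domain for GAAA repeats and that switch on interferons, interferon-stimulated genes, cytokines and genes of myeloid identity. Their 8 members measured here, Irf1, Irf2, Irf3, Irf4, Irf5, Irf7, Irf8 and Irf9, were chosen by name. All 8 were among the 54059 genes of the deposited table and among the 11450 genes tested, those with a mean of at least 1 FPKM (fragments per kilobase of transcript, scaled for sequencing depth) over the 9 libraries. In macrophages, toll-like receptors that sense nucleic acid or bacterial lipid act through adaptors and kinases on IRF3, IRF5 and IRF7, which lie in the cytoplasm until they are phosphorylated. Secreted type I interferon then acts through the complex ISGF3, which holds STAT2 and IRF9, while interferon gamma raises Irf1 and Irf8. IRF4 and IRF8 bind DNA mainly with partner factors such as PU.1 and BATF and shape macrophage, dendritic cell and B cell fate.

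RNA was sequenced from adherent peritoneal macrophages of C57BL/6 mice aged 8 weeks by the labels, washed out 3 days after 1 ml of starch broth, in 3 groups of 3 libraries. All 9 libraries were stimulated with imiquimod (IMQ), a TLR7 agonist, for 4 h, so no group shows an unstimulated level. The wild-type group received 10 µg/ml IMQ. The M-Shp2-/- group came from mice whose floxed Shp2 is removed by Cre under the Lyz2 promoter, active in monocytes, mature macrophages and granulocytes. Its IMQ dose is not stated in the sources used here. The SHP099 group was wild-type macrophages given 10 µM SHP099, an allosteric inhibitor of the phosphatase SHP2, for 2 h before 10 µg/ml IMQ. The labels do not say that the 3 libraries of a group are separate mice, so p values measure the spread between these libraries, which may be technical in part. The recovered depth was 39841813 to 50979545 reads per library.

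The labelled cell type and genotype were checked first. The macrophage markers Lyz2 and Cd68 had a mean of 7886 and 1384 FPKM over the 9 libraries, and Adgre1, which encodes F4/80, had 266 FPKM. Lyz2 was lower in all M-Shp2-/- than in all wild-type libraries (-0.76, limma adjusted p = 0.388), and was not called. It had 4863, 4743 and 5407 FPKM in M-Shp2-/- against 9348, 10280 and 10715 FPKM in SHP099. In that comparison limma's voom on recovered reads called Lyz2, while limma on FPKM did not. Ptpn11, which encodes SHP2, had 45.8, 44.0 and 40.0 FPKM in wild type, 18.6, 17.8 and 18.9 FPKM in M-Shp2-/- and 43.0, 42.1 and 39.6 FPKM in SHP099. In M-Shp2-/- it fell by 1.19 on the log2 scale (SE 0.10, n = 3 against 3, limma adjusted p = 0.0168), and all 3 M-Shp2-/- libraries lay below all others. Over 16 alternatives the limma adjusted p of Ptpn11 was 0.00186 to 0.196, and it was called in 11 of them. It was not called with the replicate number as a block, or without wild-type replicate 1 or 2 or M-Shp2-/- replicate 1 or 2. With any of those libraries left out the fold change was -1.19 to -1.15. Fold changes here are differences of log2(FPKM + 1), and adjusted p values are from limma with the Benjamini-Hochberg method over all 11450 genes.

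Some libraries stood apart from the others of their group. Wild-type replicate 3 had the highest Irf1, Irf2, Irf7, Irf8 and Irf9 of the 9 libraries. M-Shp2-/- replicate 3 had the lowest Irf3 and Irf5 of the 9 and the highest fibroblast marker sum. For this reason the results are given with and without these libraries. They were set apart by these values, so p values without them are descriptive and no test of the members named. Libraries of 1 group correlated at r = 0.954 to 0.992 across genes, and genes are not independent replicates.

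Levels per length fell into a wide order. Irf1 was the most abundant member in every library and made up 41.6% to 67.4% of the summed FPKM of the family, and Irf4 was the least abundant in every library. In SHP099 the order of mean levels was Irf1 (581 ± 82.9 FPKM, SD, n = 3), Irf8 (75.8 ± 16.5), Irf5 (61.9 ± 3.59), Irf2 (48.0 ± 2.94), Irf3 (43.7 ± 1.54), Irf7 (40.9 ± 17.3), Irf9 (23.1 ± 4.78) and Irf4 (0.356 ± 0.165). The ranges of Irf8 and Irf5, of Irf2 and Irf3, and of Irf3 and Irf7 overlapped there, while Irf1 and Irf4 stood clear. In M-Shp2-/- Irf5 came after Irf1, Irf7 (22.0 ± 10.7 FPKM, SD, n = 3) came between Irf2 and Irf9 with a range that overlapped both, and Irf1, Irf8 and Irf9 stood clear of the member after them. In wild type the order was Irf1, Irf8, Irf7, Irf5, Irf2, Irf3, Irf9 and Irf4, and the ranges of neighbours did not overlap only between Irf5 and Irf2 and between Irf9 and Irf4. The summed FPKM of the family was 547, 603 and 1760 in wild type, 458, 505 and 588 in M-Shp2-/-, and 856, 771 and 998 in SHP099. The sum in wild-type replicate 3 was the highest of all, and the M-Shp2-/- range overlapped that of wild type but not that of SHP099.

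**Figure D1:**
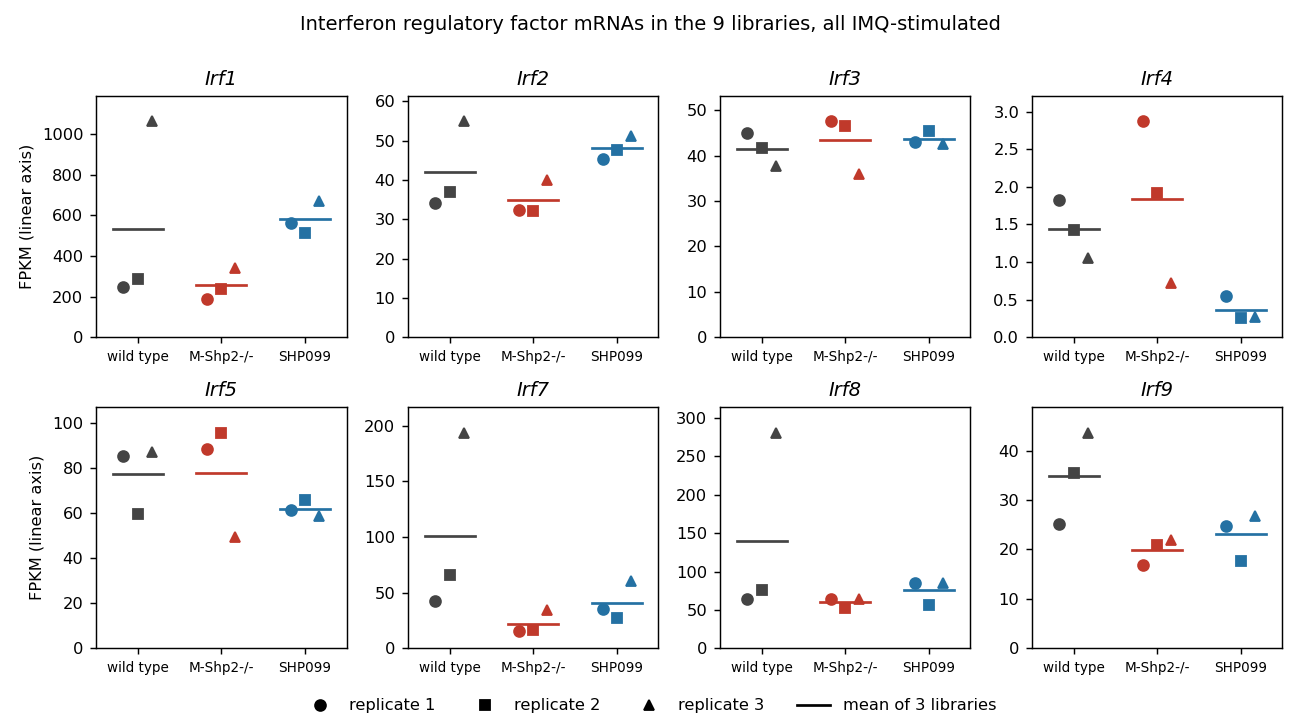
FPKM of the 8 members (linear axes from 0) in each of the 9 libraries, with the mean of 3 libraries as a line. Wild-type replicate 3 is high for Irf1, Irf7 and Irf8, and Irf4 is low in all 3 SHP099 libraries.

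Irf3, Irf5 and Irf7 receive the signal of the receptors. Irf3 (chr7:44997648-45002848, GRCm38, plus strand), which is made in most cells and is activated by the kinase TBK1, had 45.1, 41.7 and 37.8 FPKM in wild type, 47.6, 46.6 and 36.0 FPKM in M-Shp2-/- and 43.1, 45.5 and 42.6 FPKM in SHP099. The groups overlapped, and the fold changes were 0.05, 0.08 and -0.02 in the 3 comparisons. The 95% interval of the difference was -0.27 to 0.38 for M-Shp2-/- and -0.14 to 0.29 for SHP099 against wild type. Irf5 (chr6:29526625-29541871, plus strand), a driver of inflammatory cytokine genes, had 85.2, 59.4 and 86.9 FPKM in wild type, 88.2, 95.6 and 49.5 FPKM in M-Shp2-/- and 61.4, 65.8 and 58.6 FPKM in SHP099. M-Shp2-/- replicates 1 and 2 were the highest and replicate 3 the lowest of all libraries, so the groups overlapped. Irf7 (chr7:141262706-141266481, minus strand), the amplifier of interferon responses that is itself interferon-induced, had 42.5, 66.1 and 194 FPKM in wild type, 15.4, 16.4 and 34.3 FPKM in M-Shp2-/- and 35.2, 27.1 and 60.3 FPKM in SHP099. Each M-Shp2-/- value was under the lowest wild-type value, while SHP099 lay between and overlapped both.

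Irf9, Irf1 and Irf2 act downstream of interferon receptors. Irf9 (chr14:55603571-55610030, plus strand), the DNA-binding subunit of ISGF3, had 25.2, 35.5 and 43.6 FPKM in wild type, 16.8, 20.8 and 21.9 FPKM in M-Shp2-/- and 24.7, 17.7 and 26.8 FPKM in SHP099. The M-Shp2-/- libraries again lay below every wild-type library. Irf1 (chr11:53770014-53778374, plus strand), an activator induced by interferon gamma and NF-kappaB, had 249, 286 and 1062 FPKM in wild type, 190, 239 and 341 FPKM in M-Shp2-/- and 561, 511 and 673 FPKM in SHP099. Its wild-type libraries overlapped both other groups, and every SHP099 library lay above every M-Shp2-/- library. Irf2 (chr8:46739732-46847458, plus strand), a relative that can compete with IRF1 for its sites, had 34.2, 37.0 and 54.9 FPKM in wild type, 32.2, 32.1 and 40.0 FPKM in M-Shp2-/- and 45.2, 47.6 and 51.1 FPKM in SHP099. It ordered the groups as Irf1 did, with a smaller spread.

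Irf8 and Irf4 are the members of myeloid and lymphoid identity. Irf8 (chr8:120736358-120756694, plus strand), needed for monocytes and some dendritic cells, had 64.0, 76.0 and 281 FPKM in wild type, 64.2, 52.9 and 64.5 FPKM in M-Shp2-/- and 85.1, 56.8 and 85.5 FPKM in SHP099. Apart from wild-type replicate 3, the libraries of the 3 groups overlapped. Irf4 (chr13:30749226-30766976, plus strand), which acts in alternatively activated macrophages and in B and plasma cells, had 1.82, 1.42 and 1.06 FPKM in wild type, 2.87, 1.92 and 0.72 FPKM in M-Shp2-/- and 0.55, 0.25 and 0.27 FPKM in SHP099. All SHP099 libraries lay below all others, at 79, 33 and 39 recovered reads against 266, 239 and 148 in wild type. In bulk samples such as these, fewer cells of a type and less RNA per cell cannot be told apart. Exons of Irf1, Irf3, Irf5 and Irf7 overlap 135, 88, 411 and 45 bases of a gene on the opposite strand, and those of Irf9 overlap 123 bases of Rnf31 on the same strand. The strand used in counting is not stated in the sources used here, so reads from those bases cannot be told apart.

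M-Shp2-/- against wild type asks what loss of SHP2 from myeloid cells does to IMQ-stimulated macrophages. The lowest fold changes of the family were those of Irf7, -1.94 (SE 0.57, n = 3 against 3, limma adjusted p = 0.454), Irf8, -0.87 (SE 0.53, limma adjusted p = 0.518), and Irf1, -0.76 (SE 0.55, limma adjusted p = 0.556). Irf9 followed at -0.75 (SE 0.21, limma adjusted p = 0.454), with the smallest SE among these. No member was called in limma at an adjusted p of at most 0.05, against 10 of all 11450 genes (0.0873%), and none passed the study's cut-offs (adjusted p up to 0.005 with a log2 fold change of 1 or more either way), against 1 gene (0.00873%). At an unadjusted p under 0.05, 2 members passed, Irf7 and Irf9, beside 10.5% of all genes, and limma's voom on recovered reads called no member. The groups of Irf7 and Irf9 did not overlap, 2 of 8 members, where 19.1% of all genes tested did not overlap in either direction. In that direction, lower in M-Shp2-/-, the share of all genes was 3.07%. Under median-of-ratios scaling that share was 9.13%, and 3 members did not overlap, Irf8 being the other. The median fold change of the 8 members was -0.50, that of all tested genes 0.15. Without wild-type replicate 3 the median of the members was -0.07, Irf7 stood at -1.32, Irf9 at -0.58, and Irf1 and Irf8 at -0.10 and -0.21. Over 16 alternatives the adjusted p of Irf7 was 0.211 to 0.89 and that of Irf9 0.214 to 0.89.

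Median-of-ratios scaling, which sets each library by the median ratio of its genes to their mean over libraries, put the median of all genes at -0.01 in place of 0.15 in M-Shp2-/-, and at -0.01 in place of 0.13 in SHP099, against wild type. It gave Irf3 -0.12 in M-Shp2-/- and -0.07 in SHP099, where the values above were 0.05 and 0.08, so no direction is given for Irf3. Under it Irf7 and Irf9 stood at -2.11 and -0.93 in M-Shp2-/-.

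**Figure D2:**
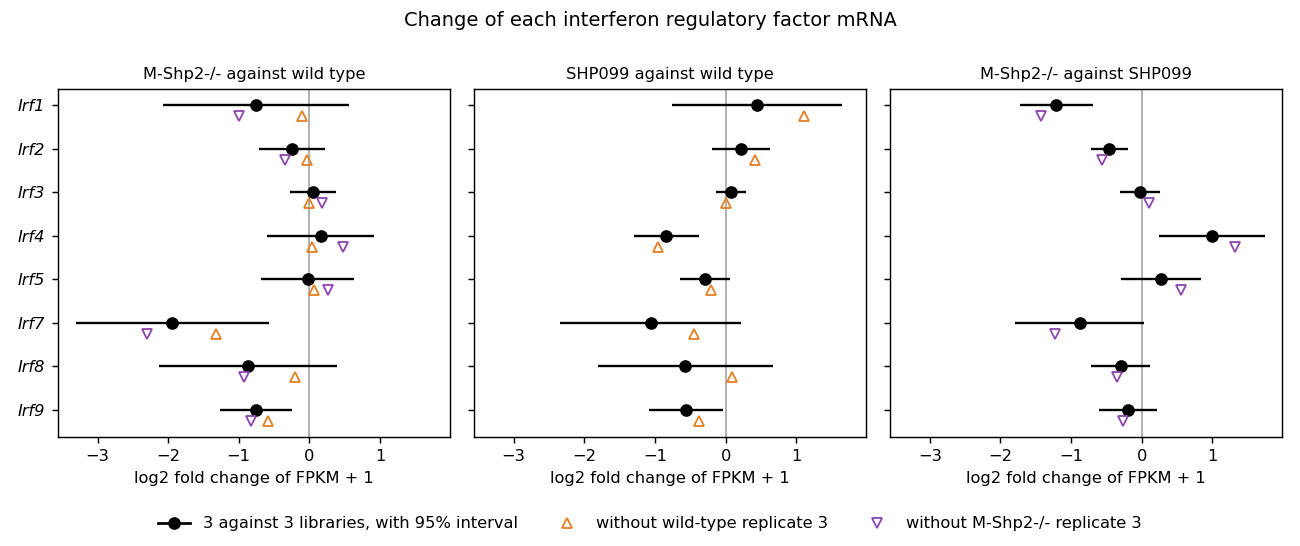
Fold change of the 8 members in log2(FPKM + 1), with its 95% interval from limma (n = 3 against 3), in the 3 comparisons, and the same value without wild-type or M-Shp2-/- replicate 3. Irf1 moves from 0.45 to 1.11 in SHP099 and from -0.76 to -0.10 in M-Shp2-/- once wild-type replicate 3 is left out.

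SHP099 against wild type asks what the inhibitor does in cells that keep SHP2, and it shares its 3 wild-type libraries with the comparison above. Irf4 fell by 0.84 (SE 0.19, n = 3 against 3, limma adjusted p = 0.049), in 3 of 3 SHP099 libraries, and was the only member called of 8. It passed the filter, at a mean of 1.21 FPKM over the 9 libraries, only through wild type (1.43) and M-Shp2-/- (1.84), with 0.356 in SHP099. Without the filter it was not called, so this call is descriptive. Of all genes, 797 were called (6.96%), 521 higher and 276 lower, or 172 higher and 339 lower under median-of-ratios scaling. No member passed the study's cut-offs, which 19 genes did (0.166%). Irf4 was also the only member whose groups did not overlap, where 34.6% of all genes did not, 6.77% on the lower side. Under median-of-ratios scaling the lower side held 14.6% of all genes and 1 member, Irf4. Irf4 was called in 4 of 15 alternatives, with adjusted p values from 0.0275 to 0.193. Its size depends on the pseudocount because its FPKM are near 1, at -1.78 with a pseudocount of 0.1 and -2.05 with voom on recovered reads. Over the 9 alternatives that kept all libraries the fold change of Irf4 was -2.05 to -0.26, and with 1 library left out -0.95 to -0.73. Irf9 had an unadjusted p under 0.05 and a fold change of -0.56 (SE 0.23, limma adjusted p = 0.17), where 26.7% of all genes had an unadjusted p that low.

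Leaving out wild-type replicate 3 moved several members in the SHP099 comparison. That library was set apart for its high Irf1 and Irf2, among others, so the p values without it are no test of a rise in them. With all libraries Irf1 stood at 0.45 (SE 0.51, limma adjusted p = 0.627), and without wild-type replicate 3 at 1.11 (limma adjusted p = 0.0118, 0.0118 to 0.945 over 16 alternatives). Irf2 moved in the same way, from 0.22 (limma adjusted p = 0.473) to 0.42 (limma adjusted p = 0.0321, 0.0321 to 0.902 over 16 alternatives). Irf8 went from -0.57 to 0.09 and Irf7 from -1.06 to -0.45, neither called. Then 3 members were called, Irf1, Irf2 and Irf4, and 1273 of all genes. In M-Shp2-/- against wild type without that library, Irf1 and Irf2 stood at -0.10 and -0.04.

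M-Shp2-/- against SHP099 sets the loss of SHP2 directly against its inhibition, without the wild-type libraries. Irf1 was lower in M-Shp2-/- in 3 of 3 libraries, -1.21 (SE 0.22, n = 3 against 3), with a limma adjusted p of 0.185. Irf2 was lower in 3 of 3, -0.46 (SE 0.11, limma adjusted p = 0.267), and Irf4 higher in 3 of 3, 0.99 (SE 0.31, limma adjusted p = 0.329). No member was called in limma or with voom on recovered reads. Of all genes 8 were called (0.0699%), and none passed the study's cut-offs in limma (0.0%) or with voom, while 1437 had an unadjusted p under 0.05. These 3 members had unadjusted p values under 0.05, as 12.6% of all genes did, and were the 3 whose groups did not overlap, where 17.7% of all genes did not, 9.76% on the lower side. The 95% interval of the difference was -1.73 to -0.69 for Irf1 and -0.30 to 0.84 for Irf5. Without M-Shp2-/- replicate 3, 5 members were called, Irf1 (-1.43, limma adjusted p = 0.00296), Irf2 (-0.56, limma adjusted p = 0.00591), Irf4 (1.32, limma adjusted p = 0.0109), Irf5 (0.56, limma adjusted p = 0.00624) and Irf7 (-1.23, limma adjusted p = 0.0361), and 2277 of all genes. With any other library left out, no member was called in this comparison. M-Shp2-/- replicate 3 was set apart for its low Irf3 and Irf5, after its values were seen. Within its group it also had the highest Irf1, Irf2 and Irf7 and the lowest Irf4, so leaving it out widens all 5 differences. The p values of these 5 members without it are therefore descriptive and no test of a difference.

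The promoters printed are those of Irf1, Irf2 and Irf8, the 3 members whose windows held a match to a motif searched. They were chosen by that match and not by their values. RefSeq promoter windows (GRCm38.p6), 250 bases before to 50 after a start, were found for 8 of 8 members, 11 windows in all. They were searched on both strands for GAAA repeats with any pair of bases between (the core of the interferon-stimulated response element, ISRE), for TTC and GAA with any 3 bases between (the gamma-activated site, GAS, which reads alike on both strands) and for the NF-kappaB motif, and matches are in capitals. The Irf1 window, chr11:53769764-53770063 on the plus strand, holds a GAS match at -90 and an NF-kappaB match at -13 from the start.
Irf1: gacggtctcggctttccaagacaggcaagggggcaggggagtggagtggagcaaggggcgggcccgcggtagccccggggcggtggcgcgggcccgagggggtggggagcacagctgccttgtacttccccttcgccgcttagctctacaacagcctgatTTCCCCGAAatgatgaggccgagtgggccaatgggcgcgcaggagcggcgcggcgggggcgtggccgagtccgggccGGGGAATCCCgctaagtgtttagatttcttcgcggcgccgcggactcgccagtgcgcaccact
The Irf2 window, chr8:46739495-46739794 on the plus strand, holds an ISRE core match at -241, a GAS match at -224 and an NF-kappaB match at -17, with no overlap between them.
Irf2: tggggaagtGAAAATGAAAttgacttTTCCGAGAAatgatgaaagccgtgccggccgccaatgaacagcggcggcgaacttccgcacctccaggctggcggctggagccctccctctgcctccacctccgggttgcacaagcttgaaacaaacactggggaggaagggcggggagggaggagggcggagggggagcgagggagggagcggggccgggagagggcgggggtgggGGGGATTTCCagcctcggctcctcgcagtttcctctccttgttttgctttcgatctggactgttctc
The first Irf8 window, chr8:120736108-120736407 on the plus strand, holds GAS matches at -171 and -153.
Irf8: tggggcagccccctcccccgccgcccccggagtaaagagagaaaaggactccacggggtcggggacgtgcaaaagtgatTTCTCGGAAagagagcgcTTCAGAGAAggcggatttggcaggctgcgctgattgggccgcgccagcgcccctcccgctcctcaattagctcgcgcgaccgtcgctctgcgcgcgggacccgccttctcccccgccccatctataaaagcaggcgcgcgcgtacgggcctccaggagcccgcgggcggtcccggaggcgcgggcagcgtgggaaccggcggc
Among all 32851 windows, 3.44% held the ISRE core, 8.3% the GAS and 8.46% the NF-kappaB motif. Of the 11 windows of the family, 1 held the ISRE core, 3 the GAS and 2 the NF-kappaB motif. The windows of Irf3, Irf4, Irf5, Irf7 and Irf9 held none of these letters, which says nothing about the factors.

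The genes most like each member were taken by Pearson r of log2(FPKM + 1) over the 9 libraries, a description of shared pattern with n = 9. Irf1 and Irf2 were each the gene most like the other among all tested genes (r = 0.978), and r was 0.979 over 8 libraries without wild-type replicate 3. Next to Irf1 came Nmi (0.974), an interferon-induced partner of STAT proteins, and Mark2 (0.971), and next to Irf2 Mark2 (0.977) and Ehmt2 (0.972). Irf7 was most like Gm12250 (0.986), Oas1a (0.986), which senses double-stranded RNA, and Ifi204 (0.983). Irf9 was most like the interferon-stimulated genes Xaf1 (0.982), Oasl2 (0.977) and Rtp4 (0.972). Irf8 was most like Ifi213 (0.981), Gbp4 (0.978), a GTPase induced by interferon gamma, and Rnf114 (0.972), and without wild-type replicate 3 these stood at 0.894, 0.951 and 0.888. Irf4 was most like Sema7a (0.968), Hip1 (0.965) and Med23 (0.964). Irf5 was most like Rftn1 (0.983), Pik3cd (0.970), a leukocyte PI3-kinase subunit, and Pold3 (0.967), and Irf3 most like Cox7c (0.984), Ppox (0.983) and Zdhhc18 (0.981). Between members, Irf7 and Irf9 had r = 0.93 (0.86 without wild-type replicate 3), and Irf1 and Irf4 had r = -0.72 (-0.96 without it).

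The ligands are the next step up. Of 20 interferon ligand genes only Ifng, which encodes interferon gamma, passed the filter. Ifng had 5.06, 11.9 and 38.8 FPKM in wild type, 0.70, 1.35 and 2.21 FPKM in M-Shp2-/- and 0.46, 1.01 and 4.34 FPKM in SHP099. Every wild-type library lay above all others, and wild-type replicate 3 was the highest. Its fold change was -2.64 in M-Shp2-/- (limma adjusted p = 0.424) and -2.54 in SHP099 (limma adjusted p = 0.0819), not called in either, and -1.92 and -1.82 without wild-type replicate 3. Over 16 alternatives the limma adjusted p was 0.196 to 0.89 in M-Shp2-/- and 0.0155 to 0.26 in SHP099. There 1 alternative called Ifng, the replicate number as a block. Its unadjusted p was under 0.05 in both, and voom did not call it. Ifnb1, the type I interferon that IRF3 and IRF7 induce, was at 1 read in each of 2 libraries and at 0 in the other 7, and every Ifna gene listed was at 0 in all 9. Ifnk, another type I interferon gene, had 1 to 11 reads in each of the 9 libraries (0.03 to 0.33 FPKM). A count of 0 allows up to 3 reads in a library, so differences in Ifna or Ifnb1 mRNA were not detectable at this depth, at the single time of 4 h.

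Interferon gamma is made mainly by T and NK cells, and their markers were low throughout. The 6 T cell markers summed to 0.908, 2.20 and 6.39 FPKM in wild type, 0.694, 0.417 and 3.46 FPKM in M-Shp2-/- and 6.11, 4.86 and 4.24 FPKM in SHP099. The most abundant was Cd3g in the SHP099 libraries, Trac in wild-type replicates 1 and 2 and Cd8a in wild-type replicate 3. Cd8a was at 0 in wild-type replicate 1 and Cd3e at 0 in M-Shp2-/- replicate 1. The 4 NK cell markers summed to 0.085, 0.353 and 2.37 FPKM in wild type, 0 to 0.501 FPKM in M-Shp2-/- and 0.326 to 0.462 FPKM in SHP099, with Gzma the most abundant by the mean of the 9 libraries and all 4 at 0 in M-Shp2-/- replicate 1. Both sums were highest in wild-type replicate 3, where Ifng, Irf1, Irf2, Irf7, Irf8 and Irf9 were highest too, and in SHP099 the T cell sum was high while Ifng was low. Their part in the values of the IRFs was not tested.

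Of 22 listed receptors, adaptors and kinases upstream of the IRFs, 21 were tested. In M-Shp2-/- limma called none, 2 of 21 had an unadjusted p under 0.05, near the 10.5% of all genes that did, and voom called none. The largest fold changes there were those of the RNA sensors Ddx58 (-0.75) and Ifih1 (-0.72), of Slc15a4 (0.49) and of the adaptor Mavs (0.41). In SHP099 limma called 2 of 21 (6.96% of all genes), and 7 of 21 had an unadjusted p under 0.05 (26.7% of all genes). Tlr7, the receptor of IMQ, fell there by 0.75 (limma adjusted p = 0.0314). Slc15a4, an endosomal transporter that TLR7 needs to activate IRF5, rose by 0.47 (limma adjusted p = 0.0279). Tlr7 was called in 10 of 16 alternatives (limma adjusted p from 0.0237 to 0.142) and Slc15a4 in 9 of 16 (0.0228 to 0.149). Under median-of-ratios scaling neither was called, Tlr7 at -0.90 (limma adjusted p = 0.0541) and Slc15a4 at 0.32 (limma adjusted p = 0.0948). Tlr7 had 89.6, 87.0 and 103 FPKM in wild type and 49.6, 48.7 and 67.8 FPKM in SHP099, against 73.8, 88.5 and 72.0 FPKM in M-Shp2-/-. Slc15a3 and Unc93b1 were the most abundant genes of the list, at a mean of 749 and 274 FPKM, with fold changes of -0.25 and -0.09 in M-Shp2-/- and 0.04 and -0.11 in SHP099. The median of the list was -0.09 in M-Shp2-/- and -0.11 in SHP099.

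Of 11 interferon receptor and JAK-STAT relay genes 10 were tested, and in M-Shp2-/- limma called none, with 2 of 10 at an unadjusted p under 0.05 (10.5% of all genes) and none by voom. Stat2, the partner of IRF9 in ISGF3, had a fold change of -1.07 in M-Shp2-/- (limma adjusted p = 0.455) and -0.96 in SHP099 (limma adjusted p = 0.147), with no overlap with wild type in both. Stat2 had 39.9, 54.9 and 109 FPKM in wild type, 28.0, 32.0 and 27.7 FPKM in M-Shp2-/- and 35.0, 23.3 and 38.0 FPKM in SHP099. In SHP099 limma called 1 of 10 (6.96% of all genes), and 4 of 10 had an unadjusted p under 0.05 (26.7% of all genes). Jak2, a kinase of the interferon gamma receptor, fell there by 0.57 (limma adjusted p = 0.0485). Without wild-type replicate 3 the limma adjusted p of Jak2 was 0.0519 (0.0326 to 0.192 over 16 alternatives, called in 5). Ifngr1, a chain of that receptor, stood at 0.68 in SHP099 (limma adjusted p = 0.0719), above wild type in 3 of 3 libraries, and without wild-type replicate 3 at 0.87 (limma adjusted p = 0.0188, 0.0188 to 0.257 over 16 alternatives). The most abundant, Jak1, stood at 0.10 in both. The median of the list was -0.03 in M-Shp2-/- and -0.12 in SHP099.

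The feedback inhibitors held 9 genes, all tested, and in M-Shp2-/- limma called none, with 5 of 9 at an unadjusted p under 0.05 (10.5% of all genes) and none by voom. In SHP099 limma called 1 of 9 (6.96% of all genes), and 4 of 9 had an unadjusted p under 0.05 (26.7% of all genes). Socs3, which blocks JAK kinases, had 888, 1010 and 1517 FPKM in wild type, 488, 443 and 434 FPKM in M-Shp2-/- and 368, 315 and 450 FPKM in SHP099. In SHP099 it fell by 1.57 (limma adjusted p = 0.0157, and 0.00827 to 0.0888 over 16 alternatives, called in 13), and it stood at -1.28 in M-Shp2-/- (limma adjusted p = 0.204), where the groups did not overlap. Socs1, the main brake on interferon gamma signalling, stood at -1.44 in M-Shp2-/- and -1.87 in SHP099 (limma adjusted p = 0.455 and 0.0534). Usp18, which shuts the type I receptor, stood at -1.73 and -1.66 (limma adjusted p = 0.454 and 0.0914). Ptpn6, which encodes SHP1, stood at 0.11 and 0.18. The median of the list was -0.81 in SHP099, and without wild-type replicate 3 it was -0.78 in M-Shp2-/- and -0.21 in SHP099. With all libraries the median in M-Shp2-/- was that of Trim30a, an interferon-induced TRIM protein (-1.0, limma adjusted p = 0.388). Without wild-type replicate 3, Socs1 and Usp18 were also called in SHP099, beside 1273 of all 11450 genes (limma adjusted p = 0.0393 and 0.047, and 0.0202 to 0.201 and 0.0459 to 0.289 over 16 alternatives). That library had the highest Socs1 and Usp18 of all and was left out after its values were seen, so these p values are descriptive.

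Of 33 listed interferon-stimulated genes, targets of ISGF3 and the IRFs, 31 were tested, and limma called none in any of the 3 comparisons with all libraries. At an unadjusted p under 0.05 there were 16 in M-Shp2-/-, 6 in SHP099 and 9 in M-Shp2-/- against SHP099, where the shares of all genes were 10.5%, 26.7% and 12.6%, and voom called none. In M-Shp2-/- 30 of the 31 had a negative fold change, with a median of -1.21 where all genes had 0.15, and 18 did not overlap with wild type on the lower side, where 3.07% of all genes did so. Under median-of-ratios scaling the count was 18 too, and the share of all genes 9.13%. In SHP099 27 of 31 were negative, with a median of -0.75, and 3 did not overlap on the lower side, where 6.77% of all genes did so. Without wild-type replicate 3 the median was -0.54 in M-Shp2-/- and -0.19 in SHP099, where Oasl1 alone was called, beside 1273 of all genes, at -1.18 (limma adjusted p = 0.0377, 0.0377 to 0.269 over 16 alternatives). In M-Shp2-/- against SHP099, 29 of 31 were negative, with a median of -0.40, and 6 did not overlap on the lower side, beside 9.76% of all genes. Without M-Shp2-/- replicate 3 that median was -0.60 and limma called 7 of 31, with 6 lower, where it called 2277 of all 11450 genes, among them Psmb8, an immunoproteasome subunit, at -0.80 (limma adjusted p = 0.00698, 0.00698 to 0.526 over 16 alternatives), and Ciita higher. The 4 largest fold changes in M-Shp2-/- were those of Cxcl10 (-2.14), Oasl1 (-2.10), Rtp4 (-2.01) and Ccl5 (-1.97, limma adjusted p = 0.0737). Gbp2, a GTPase that interferon gamma and Irf1 induce, had 169, 174 and 420 FPKM in wild type, 113, 151 and 178 FPKM in M-Shp2-/- and 285, 194 and 402 FPKM in SHP099. As for Irf1, every SHP099 library lay above every M-Shp2-/- library, and wild type overlapped both.

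**Figure D3:**
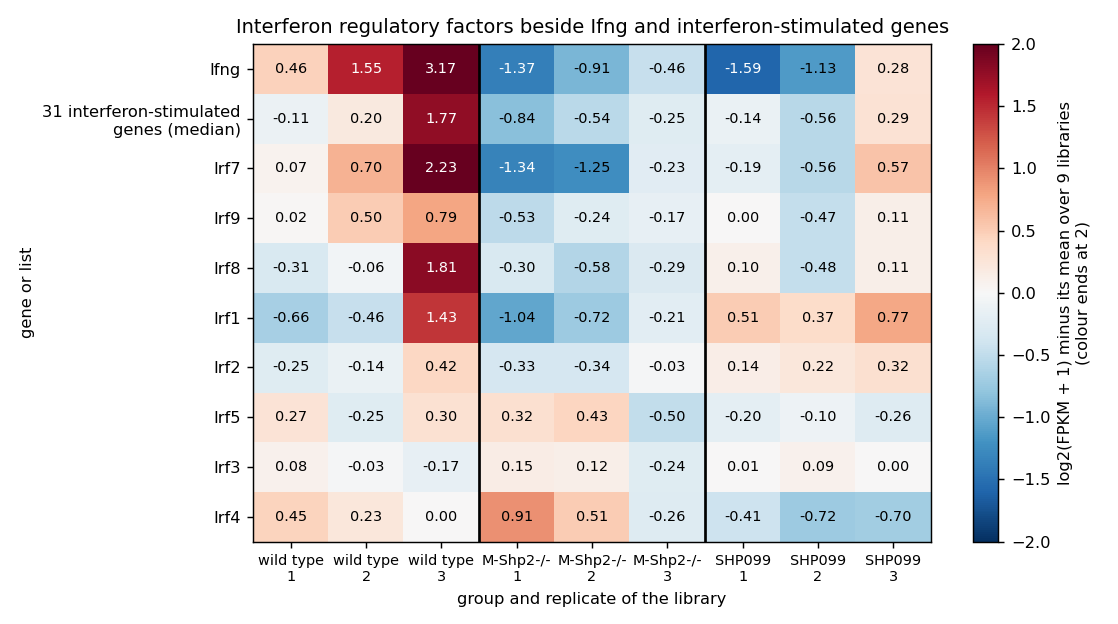
Difference of log2(FPKM + 1) from its mean over the 9 libraries, for Ifng, the median of 31 interferon-stimulated genes and the 8 members, by library. Wild-type replicate 3 is highest for Ifng (3.17), the interferon-stimulated genes (1.77), Irf7 (2.23) and Irf8 (1.81), and Irf1 is above its mean in all 3 SHP099 libraries while Ifng is below its mean in 2 of them.

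Partners of the IRFs on DNA held 10 genes, of which 9 were tested, and in M-Shp2-/- limma and voom called none, with 0 of 9 at an unadjusted p under 0.05 (10.5% of all genes). In SHP099 limma called 2 of 9 (6.96% of all genes), and 3 of 9 had an unadjusted p under 0.05 (26.7% of all genes). In SHP099 Batf, which binds with IRF4 and IRF8, fell by 0.73 (limma adjusted p = 0.0149), with 120, 97.9 and 118 FPKM in wild type and 66.6, 69.8 and 64.3 FPKM in SHP099. In M-Shp2-/- it had 114, 126 and 59.0 FPKM, and replicate 3 lay below every SHP099 library while replicates 1 and 2 lay above them. In SHP099 Etv6, a repressor that IRF8 can bind, fell by 0.58 (limma adjusted p = 0.0179). Of 16 alternatives, 11 called Batf (limma adjusted p from 0.0127 to 0.104) and 13 called Etv6 (0.0107 to 0.11). Batf2, an interferon gamma-induced partner of IRF1, had 12.2, 22.1 and 107 FPKM in wild type, 10.2, 11.2 and 12.2 FPKM in M-Shp2-/- and 35.8, 16.5 and 51.1 FPKM in SHP099, and was lower in all 3 M-Shp2-/- than in all 3 SHP099 libraries (-1.41, limma adjusted p = 0.279). Spi1, which encodes PU.1, was the most abundant, with fold changes of 0.01 in M-Shp2-/- and -0.09 in SHP099. The median of the list was -0.06 and -0.16.

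Cytokine and alternative activation targets of IRF4, IRF5 and IRF8 held 12 genes, all tested. In SHP099, 7 were called by limma, all lower (6 by voom, without Retnla), where 6.96% of all genes were called, 276 of 11450 on the lower side. Like every list here, this one was chosen with earlier results of these data known. The study itself reported lower Il6 and Il23a with SHP099, so the count is a description and no test of IRF targets. Il23a and Retnla, at a mean of 0.773 and 0.390 FPKM in SHP099, passed the filter through the other groups. The median of the list was -1.51, that of all genes 0.13. Mrc1, the mannose receptor of alternatively activated macrophages, fell by 2.18 (limma adjusted p = 0.00289). Retnla fell by 2.67 (limma adjusted p = 0.039) and Chil3 fell by 1.32 (limma adjusted p = 0.0322), both also genes of that state. Il12b, which encodes the shared p40 subunit of IL-12 and IL-23, fell by 3.48 (limma adjusted p = 0.0309). Il23a, the other subunit of IL-23, fell by 2.22 (limma adjusted p = 0.0116), Il18 fell by 1.61 (limma adjusted p = 0.0133) and Il6 fell by 2.93 (limma adjusted p = 0.0129). Of 16 alternatives Mrc1 was called in 16, Il6 in 14, Il18 in 12, Il12b and Chil3 in 11 and Retnla in 6, and Il23a in 13 of 15. In M-Shp2-/- only Il6 was called, -2.17 (limma adjusted p = 0.00117), and the median was -0.88. Tnf and Cybb, an NADPH oxidase subunit, were the most abundant of the list by the mean of the 9 libraries, and each led in some libraries. Cybb stood at 0.02 in M-Shp2-/- and 0.32 in SHP099 (limma adjusted p = 0.91 and 0.0903). Tnf stood at -0.42 in M-Shp2-/- and had 3513 to 4768 FPKM in SHP099, within the wild-type range of 2375 to 6247 FPKM. Mrc1 had 61.5, 43.8 and 43.5 FPKM in wild type, 59.8, 71.2 and 19.4 FPKM in M-Shp2-/- and 10.3, 10.1 and 9.79 FPKM in SHP099. Retnla had 7.16, 20.7 and 2.83 FPKM in wild type, 10.2, 12.4 and 1.10 FPKM in M-Shp2-/- and 0.27, 0.29 and 0.61 FPKM in SHP099. As for Irf4, Batf and Irf5, M-Shp2-/- replicate 3 lay apart from replicates 1 and 2 and nearer to the SHP099 libraries.

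B cell markers moved with Irf4. The 5 markers summed to 5.48, 4.10 and 2.66 FPKM in wild type, 20.1, 9.32 and 2.89 FPKM in M-Shp2-/- and 1.08, 0.999 and 1.37 FPKM in SHP099. All 3 SHP099 sums were below every other, and no marker was at 0 in any library. The 6 mast cell and eosinophil markers summed to 5.09, 2.05 and 2.80 FPKM in wild type, 2.51, 3.63 and 0.626 FPKM in M-Shp2-/- and 0.417, 0.299 and 0.475 FPKM in SHP099. Kit was the most abundant except in M-Shp2-/- replicate 3, where it was Prg2, and Epx was at 0 in 7 of 9 libraries. The 5 conventional dendritic cell markers summed to 1.24, 1.28 and 0.809 FPKM in wild type, 1.83, 1.33 and 1.66 FPKM in M-Shp2-/- and 0.784, 0.725 and 0.619 FPKM in SHP099, with Zbtb46 the most abundant in each library. In both lists every SHP099 sum was below every other. Clec9a and Cd209a were at 0 in every SHP099 library. Clec9a had only 2 reads in each wild-type library, and Cd209a was also at 0 in wild-type replicate 3 and M-Shp2-/- replicate 2. Xcr1 went the other way against M-Shp2-/-, with 12, 19 and 12 reads in SHP099, 6, 2 and 8 in M-Shp2-/- and 6, 9 and 28 in wild type. The part of these cell types in the value of Irf4 was not tested.

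**Figure D4:**
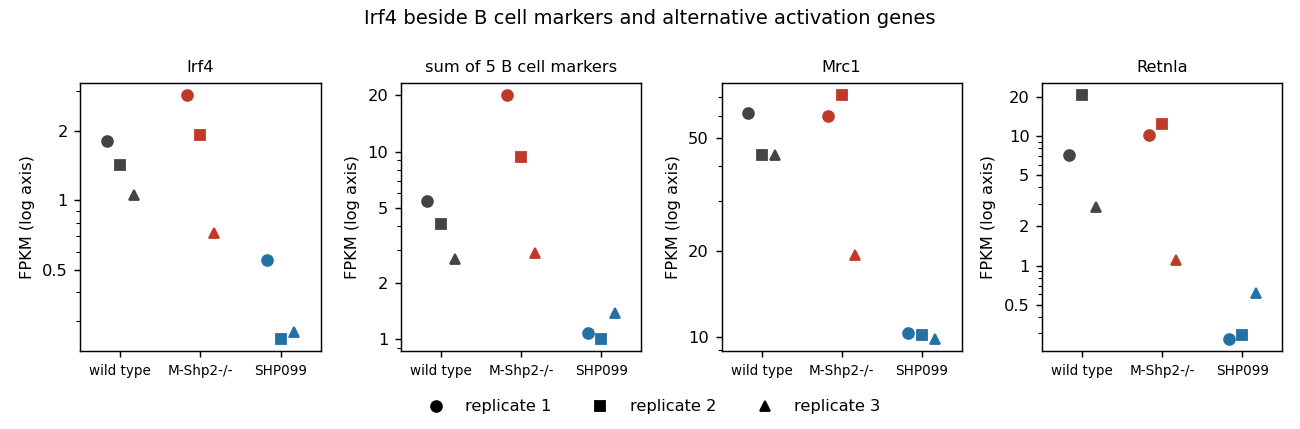
FPKM on log axes of Irf4, the sum of 5 B cell markers, Mrc1 and Retnla in the 9 libraries. All 4 are lowest in the SHP099 libraries, and M-Shp2-/- replicate 3 lies below replicates 1 and 2 in each.

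Other marker lists were measured in the same way. The 5 fibroblast markers, with Col1a1 the most abundant by the mean and none at 0, summed to 63.8, 302 and 39.7 FPKM in wild type, 135, 51.4 and 586 FPKM in M-Shp2-/- and 361, 137 and 101 FPKM in SHP099. They were highest in M-Shp2-/- replicate 3, the library with the lowest Irf3 and Irf5, and lowest in wild-type replicate 3, and their part was not tested. Of 4 mesothelial markers, Wt1 alone was tested, and the sum was 1.42 to 8.97 FPKM. Monocyte markers summed to 21.5 FPKM in wild-type replicate 3 and to 3.87 to 9.56 FPKM elsewhere, led by Ly6c2. Of 7 macrophage markers, Csf1r rose in SHP099, 1.38 (limma adjusted p = 0.0222, and 0.00394 to 0.116 over 16 alternatives, called in 11), and the median was -0.21 in M-Shp2-/- and -0.14 in SHP099. Among plasmacytoid dendritic cell markers Siglech was at 0 in 8 of 9 libraries, and Tcf4, which macrophages also express, was the most abundant in sums of 13.1 to 20.6 FPKM. Neutrophil markers (56.5 to 98.5 FPKM) were led by Csf3r, with Ly6g at most 0.04 FPKM. Among fibroblast, mesothelial, monocyte, neutrophil, plasmacytoid dendritic, mast cell and eosinophil markers, limma and voom called 0 in each comparison. Those with an unadjusted p under 0.05 were Tcf4 and Kit in SHP099 against wild type and 1 monocyte marker in M-Shp2-/- against SHP099, where 26.7% and 12.6% of all genes had one. No T cell, NK cell or conventional dendritic cell marker reached the filter of 1 FPKM.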

How the data were processed

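Values were measured in 9 libraries, 3 each of wild-type, M-Shp2-/- and SHP099-pretreated macrophages, grouped by their labels. The authors processed paired-end reads of poly(A)-selected libraries with CASAVA 1.8, HISAT2 2.0.4 and HTSeq 0.9.1 (versions per the submitters' processing notes) and deposited FPKM for 54059 genes. The genome build, annotation and strand of counting are not given in the sources used here, nor is the tool that made the FPKM. The authors' own test was run on counts, which were not used here. A deposited table of gene spans from an assembly was not used.

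Gene symbols, positions and lengths came from GENCODE M21 (GRCm38), which lacks 353 of the 54059 genes. Whole reads were sought by multiplying each FPKM by the gene's mean transcript length: 96.3% to 96.7% of values up to 50 reads came out whole (tolerance 0.05, 10% by chance). Depths were 39841813 to 50979545 reads. A value of 0 allows up to 3 reads, for counting error only.

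The test ran on log2(FPKM + 1), filtered to 11450 genes averaging 1 FPKM or more, with limma 3.58.1 (lmFit, eBayes with trend) in R 4.3.3 on the 6 libraries of each comparison, with Benjamini-Hochberg adjustment over all genes. Calls needed an adjusted p no higher than 0.05. The fit was tested on simulated data. Plots were drawn with matplotlib 3.10.9 and tables made with pandas 2.3.3 and numpy 2.4.6, in Python 3.11.15. A 3-against-3 permutation test cannot go below p = 0.1 and was not used.

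Members and lists (8 pathway lists, the family included, and 11 marker lists) were chosen with earlier results of these data known. Genes were named from all members, Ptpn11, list genes called, up to 4 with the largest change per list and comparison, the 2 most abundant per list, and the 3 genes most like each member. Ligands and markers at or near 0, Psmb8 and Ciita were named after their values were seen. Genes withheld for evaluation are not reported here. Alternatives were pseudocounts of 0.1 and 5, no filter and a minimum of 5 FPKM, 2 scalings (equal sum, or TPM, and median-of-ratios), 1 fit of all libraries, the replicate number as a block, eBayes without trend, voom on recovered reads, and each library left out.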

Additional observations from a re-analysis of the deposited data

Results flagged for a closer look

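SHP2 activity was not measured in these libraries. Ptpn11, the targeted gene, is deleted in M-Shp2-/- and left in place in SHP099, so a lower level in M-Shp2-/- follows from the design. It was lower in M-Shp2-/- than in SHP099 by a log2 fold change of -1.13 (SE 0.08, n = 3 against 3, limma adjusted p = 0.0109), in the direct test of M-Shp2-/- against SHP099. All 3 M-Shp2-/- libraries lay below all 3 SHP099 libraries. Over 16 alternatives the limma adjusted p of Ptpn11 was 0.00124 to 0.146, and it was called in 10 of them. It was not called without M-Shp2-/- replicate 1 or 2 or any 1 of the SHP099 libraries, where the fold change was -1.17 to -1.11. With the replicate number as a block it was not called either, and 0 genes were called in this comparison. No IRF member passed that test with all libraries.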

How the results depend on the processing

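Of M-Shp2-/- against wild type, no member was called under any alternative. The count of all genes called was 10, and 2 with the replicate number as a block, 6 with eBayes without the trend, and 1 to 8 with 1 library left out. Whether same-numbered libraries are paired was not settled. Their deviations from the group means correlated above 0.1 in 4 of 9 pairs, from -0.431 to 0.492, and those of other pairs from -0.627 to 0.544. Such deviations sum to 0 within a group of 3, so these correlations cannot exclude pairing.

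Of SHP099 against wild type, 1 member was called (Irf4), and 0 with a pseudocount of 0.1 or 5, no filter, a minimum of 5 FPKM (which removes Irf4), equal sums, all 9 libraries in 1 fit, or the replicate block (limma adjusted p = 0.0637, 0.0275 to 0.193 over 15 alternatives). With 1 library left out the count was 0 to 3. All genes called numbered 797, and 96 without a filter, 511 with median-of-ratios scaling, and 47 to 1273 with 1 library left out.

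Of M-Shp2-/- against SHP099, 0 members were called, and 0 to 5 with 1 library left out. All genes called numbered 8, and 17 at a minimum of 5 FPKM, 3 with all libraries in 1 fit, 0 with the replicate block, 14 with voom, and 0 to 2277 with 1 library left out. The cause of these changes was not tested. Where 1 library is left out of 3, each fit has 5 libraries.

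With the replicate number as a block, Ifng was called in SHP099 (limma adjusted p = 0.0155, 0.0155 to 0.26 over 16 alternatives), as were Ccl5, Oasl1, Socs1, Trim30a and Usp18, and Slc15a4 (0.0504, 0.0228 to 0.149 over 16 alternatives), Jak2, Retnla and, in both of its comparisons, Ptpn11 were not.

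Signs turned, in values not called, for Irf3, Irf4, Irf5 and Irf8. Depth limits Irf4 most, at 33 reads in SHP099 replicate 2.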
